A study of Homo sapiens with 4 samples.

Results

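Open chromatin at the Ikaros family genes IKZF1, IKZF2 and IKZF3 and at CRBN was measured in the cell line TMD8 by ATAC-seq, which reads out where a transposase can reach and cut the DNA. The regions were 55 intervals of the 73135 counted, 37 at IKZF1, 11 at IKZF3, 6 at IKZF2 and 1 at CRBN. An interval is a merged peak. It was counted for a gene when its midpoint fell inside that protein-coding gene, and failing that when no other protein-coding gene ended closer, up to 100 kb away. Position and not regulation therefore ties it to a gene. TMD8 is an established line of diffuse large B cell lymphoma of the activated B cell type (ABC). The 2 control libraries came from cells with a scrambled short hairpin RNA, per the design text, and the 2 shIRF4 libraries from cells with a hairpin against IRF4. The titles of the latter read shIRF4, while their library names read siIRF4, and the titles are followed here. The level of IRF4 itself was not measured in these files. All 4 libraries are from 1 cell line, and nothing says that replicates were separate cultures, so the p-values measure the spread between these libraries, which may be technical.

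Ikaros (IKZF1), Helios (IKZF2) and Aiolos (IKZF3) are zinc finger transcription factors that bind DNA as dimers and recruit corepressor complexes. Ikaros and Aiolos direct B cell development, and Helios is best known from T cells, regulatory T cells among them. CRBN encodes cereblon, which brings substrates to a CUL4 ubiquitin ligase. With lenalidomide or a related drug bound, cereblon marks Ikaros and Aiolos for degradation, and in ABC lymphoma and myeloma cells this is known to lower IRF4.

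Total counts over all intervals ran from 9112860 to 17954924 per library, with the lowest and the highest both in shIRF4. The member intervals held 17 to 2451 counts per library, and all 55 passed the filter on low counts. The control libraries differed by little more than sampling noise over all intervals (chi-square per degree of freedom 1.04) and the shIRF4 libraries by more (2.01). Over the 55 member intervals these values were 0.849 and 1.73. Both control libraries were kept as replicates. Of 8 B cell markers, 7 had an interval within 1 kb of a gene end, with a summed level of 440.6 to 445.9 CPM (counts scaled to the effective library size) in control and 407.7 to 448.8 CPM in shIRF4. CD22 had none. Gene-end intervals were found for CD3E and CD28 among 6 T cell markers, for IL2RA among 3 of regulatory T cells, for CD14 among 4 myeloid markers, for COL1A2 among 4 epithelial and fibroblast markers, and for 0 of 4 NK cell markers. The CD3E and CD28 sum was 14.7 to 16.5 CPM in control and 10.7 to 12.4 CPM in shIRF4, with the markers called in opposite directions. CD28, at 12.8 and 14.5 CPM in control and 6.46 and 9.27 CPM in shIRF4, was lower (-0.87, adjusted p = 0.000149, edgeR). CD3E, at 1.93 and 2.01 CPM in control and 4.29 and 3.16 CPM in shIRF4, was higher (0.98, adjusted p = 0.00492, edgeR), and CD3D, CD3G, CD2 and TRAT1 had no such interval. IL2RA, at 1.59 and 2.23 CPM in control and 3.31 and 2.84 CPM in shIRF4, was also higher (0.70, adjusted p = 0.0479, edgeR), and FOXP3 and CTLA4 had none. The part of other cell types in the results was not tested.

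The sequences before 4 gene starts are shown. The intervals at the first listed starts are set against the distant intervals that changed, while the interval holding the second IKZF1 start was itself lower (-0.69). Each line gives the 250 bases before a listed start, 5′ to 3′ on the strand of the gene, from RefSeq (GRCh38.p14). Of the 4 genes, 3 matched the promoter table, with 3 listed starts for IKZF1, 2 for IKZF2 and 2 for CRBN, and IKZF3 was not matched. Capitals mark TGGGAA, the core bound by Ikaros proteins.
IKZF1 first start, chr7:50304466-50304715, plus strand: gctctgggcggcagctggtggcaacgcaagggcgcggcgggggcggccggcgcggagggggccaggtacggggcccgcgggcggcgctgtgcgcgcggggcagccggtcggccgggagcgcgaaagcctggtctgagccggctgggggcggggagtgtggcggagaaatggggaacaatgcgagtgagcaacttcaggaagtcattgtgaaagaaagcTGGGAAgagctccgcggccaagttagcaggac
IKZF1 second start, chr7:50308450-50308699, plus strand: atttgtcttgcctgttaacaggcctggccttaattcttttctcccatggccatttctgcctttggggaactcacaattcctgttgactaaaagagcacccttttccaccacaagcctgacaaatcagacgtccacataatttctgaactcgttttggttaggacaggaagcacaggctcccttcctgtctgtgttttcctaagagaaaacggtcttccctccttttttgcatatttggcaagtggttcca
IKZF2 first start, chr2:213152457-213152706, minus strand: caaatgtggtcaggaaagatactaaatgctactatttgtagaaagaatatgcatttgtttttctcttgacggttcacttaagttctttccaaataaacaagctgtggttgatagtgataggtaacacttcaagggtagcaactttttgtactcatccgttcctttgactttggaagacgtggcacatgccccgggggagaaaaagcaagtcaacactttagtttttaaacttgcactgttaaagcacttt
CRBN first start, chr3:3179718-3179967, minus strand: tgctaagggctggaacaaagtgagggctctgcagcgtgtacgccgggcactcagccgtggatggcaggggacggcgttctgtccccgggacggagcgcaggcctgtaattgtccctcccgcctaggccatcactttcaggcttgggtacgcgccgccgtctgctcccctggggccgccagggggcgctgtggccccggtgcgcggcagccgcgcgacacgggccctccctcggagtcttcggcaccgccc
The windows before the first IKZF1 start and the CRBN start held 71.2% G and C, and those before the second IKZF1 start and the IKZF2 start 45.2% and 38.0%. Both strands were searched for the interferon response element bound by IRF factors (the letters GAAA repeated after 2 free bases), the composite of an ETS and an IRF site (as the former, with GGAA as its first letters), TGANTCA (AP-1) and TGGGAA. In the 4 windows the single match to these was TGGGAA, 32 bases before the first IKZF1 start. Among 35116 RefSeq windows of the same length, 20.8% held TGGGAA, 6.57% TGANTCA, 3.02% the interferon response element and 2.41% the composite element. A match is only a match of letters, and no match says nothing of the factor. TGGGAA contains GGAA, the core of ETS sites, which 92.7% of windows held and which was found in all 4 windows printed. All 250 bases of the first IKZF1 window lay in a counted interval, as did 213 of the CRBN window, 145 of the IKZF2 window and 31 of the second IKZF1 window. The distant intervals described next were not searched, since no genome sequence was used here.

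The comparison asks how accessibility at these genes differs between cells with a hairpin against IRF4 and control cells. In shIRF4, 14 of the 55 intervals were lower and 2 higher (edgeR quasi-likelihood test, Benjamini-Hochberg adjusted over all intervals, threshold 0.05), or 29.1% called. Of all 73028 tested intervals 22.8% were called, 15.5% lower and 7.26% higher, against 25.5% lower and 3.64% higher at the members. The count of 16 calls fell when either control library was left out, and the member share then lay nearer that of all intervals. Without shIRF4 replicate 1 the member share lay farther above that of all intervals, and without shIRF4 replicate 2 it lay nearer. In DESeq2 the count of member calls was 6 (10.9%, all lower), where 6.24% of all intervals were called, 5.07% lower and 1.17% higher. The median log2 fold change was -0.13 over the members and 0.01 over all tested intervals. The 4 falls that also passed a test against a 1.5-fold change (7.27% of members, with 3.95% of all intervals passing) lay away from gene starts, 1 before IKZF1, 1 before IKZF2 and 2 in the body of IKZF3. The 6 intervals within 1 kb of an end of a member gene were not called, where 10.1% of such intervals were called over all genes (5.24% lower, 4.83% higher). Of these 6, 1 had an unadjusted p under 0.05 in edgeR and 0 were called by DESeq2. Beyond 1 kb, 16 of 49 member intervals were called (32.7%), and 24.6% over all genes (16.8% lower, 7.77% higher). Gene ends are not the same as starts here. The 49 include the interval that holds the second listed IKZF1 start (-0.69). They also include the one 1059 bp outside the higher IKZF3 end (-0.47), and both were lower. The 6 include an interval at the IKZF1 end away from its starts. The control and shIRF4 libraries did not overlap at 32 of the 55 intervals (58.2%), close to the 59.1% of all tested intervals. They were separate downwards at 24 intervals (43.6%, against 30.3% of all) and upwards at 8 (28.7% of all).

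**Figure D1:**
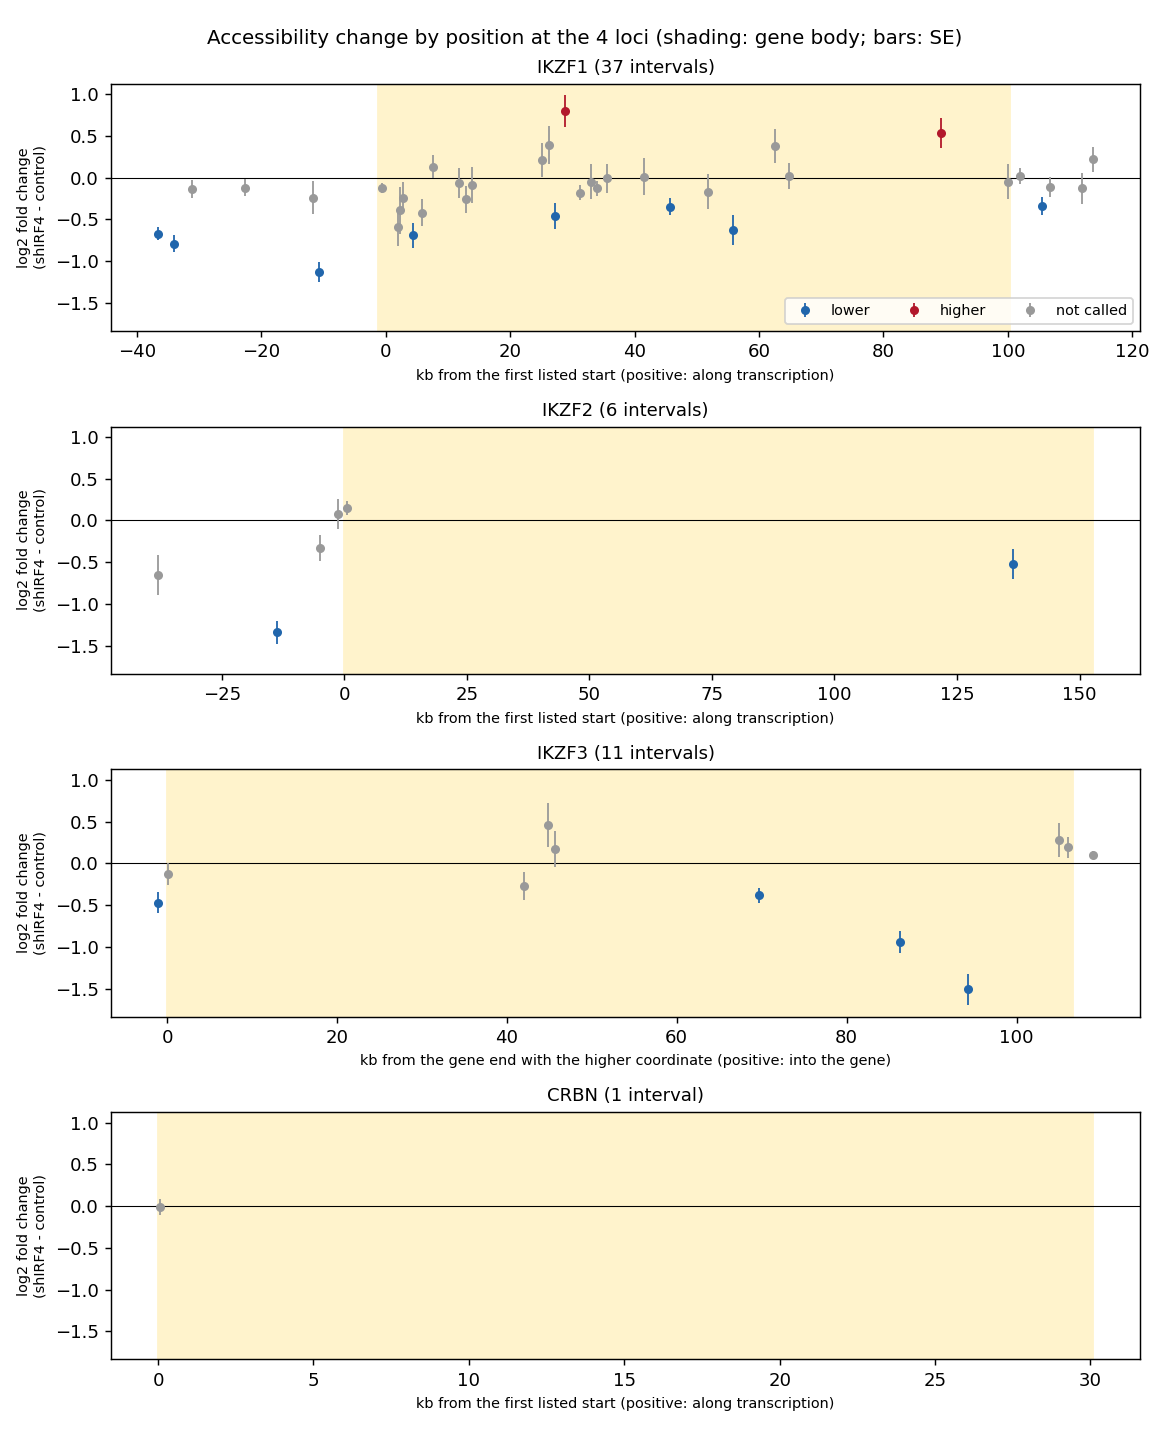
Log2 fold change (shIRF4 minus control, bars 1 SE) of each interval against its distance in kb from the first listed start or, for IKZF3, from the gene end with the higher coordinate, with the gene body shaded. Called intervals are blue (lower) or red (higher); the lowest values are -1.51 in IKZF3, -1.34 before IKZF2 and -1.13 before IKZF1, and the intervals at the first listed starts of IKZF1, IKZF2 and CRBN lie between -0.13 and 0.15.

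The interval at a gene's start is usually where its promoter is open. The IKZF1 start interval (chr7:50302556-50305745) lay at 70.5 and 72.5 CPM in control and at 66.8 and 63.4 CPM in shIRF4. Both shIRF4 libraries were below both control libraries, but the difference did not pass (log2 fold change -0.13, SE 0.06, adjusted p = 0.142, edgeR). At the IKZF2 start (chr2:213151333-213152601) the level was 36.5 and 33.9 CPM in control and 39.7 and 38.0 CPM in shIRF4. Here shIRF4 was the higher group in all libraries, again without passing (0.15, SE 0.08, adjusted p = 0.177, edgeR). The CRBN start interval (chr3:3179408-3179930), the single interval of this gene, lay at 16.4 and 16.1 CPM in control and 15.6 and 17.1 CPM in shIRF4. The groups overlapped, and the fitted change was -0.01 (SE 0.10, adjusted p = 0.978, edgeR; not called by DESeq2 either). The interval over the IKZF3 end with the higher coordinate (chr17:39863821-39864574) lay at 11.7 and 11.2 CPM in control and 11.3 and 8.95 CPM in shIRF4, overlapping groups (-0.13, SE 0.13, adjusted p = 0.535, edgeR). Per kb of interval in control cells, the CRBN start had the highest value of these 4 intervals at 31.1 ± 0.291 CPM per kb (SD, n = 2). The IKZF2 start followed at 27.7 ± 1.43, the IKZF1 start at 22.4 ± 0.458 and the IKZF3 end at 15.2 ± 0.401 CPM per kb. The SD is the spread of 1 interval between 2 libraries. From CRBN to IKZF3 the intervals were 523, 1269, 3190 and 754 bp long, and CPM per kb depends on that length. The order was not tested. In shIRF4 the CRBN start (31.3 ± 2.09 CPM per kb) and the IKZF2 start (30.6 ± 0.987 CPM per kb) differed by less than the SD of CRBN.

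Ikaros is present throughout lymphoid development, and its gene had the most intervals of the 4. Of the 37 at IKZF1, 8 were lower, 2 higher and 27 not called. The share called was 27.0% (21.6% lower, 5.41% higher), near the 22.8% of all tested intervals (15.5% lower, 7.26% higher). The largest fall was 10685 bp before the first listed start, between genes (chr7:50293658-50294405). It lay at 17.4 and 18.4 CPM in control and at 8.52 and 7.64 CPM in shIRF4. The groups were well apart, with a 2.19-fold fall (-1.13, SE 0.12, adjusted p = 3.69e-07, edgeR).

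A pair of further intervals fell farther upstream of IKZF1. The one 33956 bp before the start (chr7:50270345-50271175) lay at 28.0 and 26.3 CPM in control and at 14.9 and 16.8 CPM in shIRF4 (-0.79, SE 0.10, adjusted p = 2.58e-06, edgeR). The one 36597 bp before the start (chr7:50266476-50269763), with 3288 bp the longest interval before the gene, lay at 57.4 and 51.3 CPM in control and 34.8 and 32.9 CPM in shIRF4 (-0.67, SE 0.08, adjusted p = 9.52e-07, edgeR). In both the groups did not overlap. The other 3 intervals before the gene, 31133, 22592 and 11670 bp from the start, changed by -0.14, -0.12 and -0.24 and were not called. The upstream stretch thus held 3 called and 3 uncalled intervals, and the difference between them was not tested.

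Inside IKZF1, 4 intervals were lower and 2 higher, all with smaller folds than the upstream fall of -1.13. The interval that holds the second listed start (chr7:50308669-50309365) fell from 8.81 and 9.67 CPM in control to 5.70 and 5.78 CPM in shIRF4 (-0.69, SE 0.15, adjusted p = 0.00171, edgeR), and DESeq2 did not call it (adjusted p = 0.106). The third listed start, at position 50319048 of chromosome 7, lay in no interval. Farther into the gene, the intervals 27177, 45680 and 55763 bp after the first start were lower (-0.46, -0.35 and -0.63). Beyond the gene, the interval at chr7:50409819-50410716 was lower as well (-0.34, SE 0.11, adjusted p = 0.021, edgeR). The 2 rises were at low levels. The interval 28770 bp after the first start (chr7:50333297-50333675) rose from 3.52 and 3.12 CPM to 5.75 and 5.78 CPM (0.80, SE 0.19, adjusted p = 0.00409, edgeR). That at 89229 bp (chr7:50393595-50394295), which overlaps the long noncoding RNA gene LOC124901631, rose from 4.70 and 4.17 CPM to 6.73 and 5.78 CPM (0.53, SE 0.18, adjusted p = 0.0355, edgeR). DESeq2 called none of these 7 intervals, and 6 of them, all but the second start, lost the call without some library. The call 27177 bp after the start was lost without any 1 of the 4 (-0.50 to -0.43), and that at 45680 bp without control replicate 2 (-0.29, adjusted p = 0.128, edgeR). That at 55763 bp was lost without control replicate 2 (-0.48) and without shIRF4 replicate 1 (-0.35, adjusted p = 0.312, edgeR), and the one beyond the gene without control replicate 1 (-0.28) or shIRF4 replicate 1 (-0.35). Of the rises, that at 28770 bp was lost without control replicate 2 (0.71, adjusted p = 0.0675, edgeR), and that at 89229 bp without control replicate 1 (0.61), control replicate 2 (0.44) or shIRF4 replicate 1 (0.40). Without shIRF4 replicate 1 a pair of further body intervals, 5828 and 12855 bp after the start, were called lower (both -0.67). Among the uncalled intervals of the body were the pair at 31261 and 34017 bp, with 27.3 ± 0.197 and 26.9 ± 1.89 CPM in control and changes of -0.18 and -0.13 (SD, n = 2). The 19 uncalled body intervals away from the first start changed by -0.59 to 0.39, and the 4 uncalled ones after the gene by -0.13 to 0.22.

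The start of the Helios gene was open in this B cell line, at the level given for it. Of the 6 intervals of IKZF2, 2 were lower (33.3%, where 15.5% of all tested intervals were) and 4 not called. A share over 6 intervals rests on few. The interval 13781 bp before the first start (chr2:213165900-213166575), in the long noncoding RNA gene LINC01953, lay at 17.1 and 14.6 CPM in control and 5.70 and 7.20 CPM in shIRF4. Both shIRF4 libraries lay well below both control libraries, a 2.53-fold fall (-1.34, SE 0.14, adjusted p = 3.56e-07, edgeR). The other interval in LINC01953, 4967 bp before the start, lay at 8.05 and 8.70 CPM in control and 6.79 and 6.55 CPM in shIRF4 and was not called (-0.33, SE 0.15, adjusted p = 0.125, edgeR). That 1376 bp before the start changed by 0.08. The most distant one, 38036 bp before the start and in the long noncoding RNA gene LOC107985981, changed by -0.65 (SE 0.24, adjusted p = 0.0574, edgeR) and was called without shIRF4 replicate 2 (-0.85, adjusted p = 0.0177, edgeR). In the gene body the single interval away from the start (chr2:213015832-213016204) fell from 6.46 and 6.10 CPM to 4.61 and 3.93 CPM (-0.52, SE 0.18, adjusted p = 0.0391, edgeR), a call that was lost without any 1 of the 4 libraries (-0.66 to -0.44).

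Aiolos is the family member that rises as B cells mature. At IKZF3, 4 of 11 intervals were lower, 3 of them in the gene body, and none was higher. Among the 17 intervals of IKZF2 and IKZF3 together, 0 were higher in edgeR, 0 had a positive change with an unadjusted p under 0.05, and 0 were higher in DESeq2. With 7.26% of all tested intervals higher in edgeR and 1.17% in DESeq2, so few intervals cannot show a lack of rises at these genes. The interval 12366 bp inside the end with the lower coordinate (chr17:39769808-39770355) lay at 7.21 and 9.08 CPM in control and 2.88 and 2.84 CPM in shIRF4. It had the largest change of all 55 intervals, a 2.85-fold fall with groups well apart (-1.51, SE 0.19, adjusted p = 4.28e-06, edgeR). The next one, 20328 bp inside that end (chr17:39777661-39778426), lay at 18.5 and 20.2 CPM in control and 8.69 and 12.4 CPM in shIRF4. The groups did not overlap, but the shIRF4 libraries differed from each other (-0.94, SE 0.13, adjusted p = 1.46e-05, edgeR; -0.63 without shIRF4 replicate 1). The body interval 36893 bp inside that end fell from 28.5 and 26.4 CPM to 20.9 and 21.2 CPM (-0.38, SE 0.09, adjusted p = 0.00277, edgeR). The interval 1059 bp outside the end with the higher coordinate fell from 11.9 and 11.6 CPM to 8.20 and 9.06 CPM (-0.47, SE 0.13, adjusted p = 0.0115, edgeR). DESeq2 called neither of the last 2 (adjusted p = 0.177 and 0.316). The first of them lost its call without control replicate 1 (-0.33, adjusted p = 0.0677, edgeR), the other without control replicate 1 (-0.44), control replicate 2 (-0.48) or shIRF4 replicate 1 (-0.37). Without shIRF4 replicate 2, an interval 550 bp inside the lower end was called higher (0.34, adjusted p = 0.0245, edgeR).

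The strongest interval of all 4 genes lay 2407 bp outside the IKZF3 end with the lower coordinate (chr17:39753478-39757138). It held 124.7 and 125.9 CPM in control and 133.1 and 136.4 CPM in shIRF4, and its difference did not pass (0.10, SE 0.05, adjusted p = 0.177, edgeR). The other 5 uncalled intervals of IKZF3 away from the higher end changed by -0.27 to 0.46. Towards the lower end, the 2 intervals that fell most in IKZF3 were followed by 3 that were not called.

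**Figure D2:**
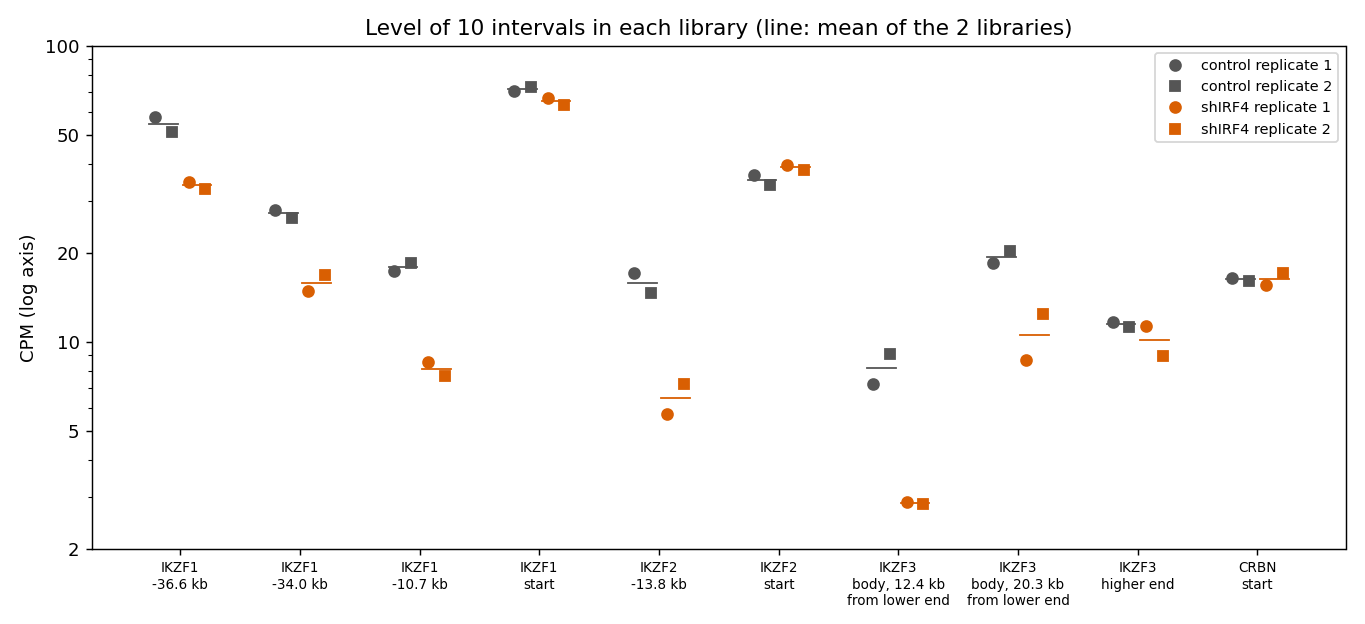
CPM (log axis) of 10 intervals in each library, with circles for replicate 1, squares for replicate 2 and a line at the mean of the 2 libraries of a group. The 6 distant or intragenic intervals are lower in both shIRF4 libraries than in both control libraries, while the start interval of CRBN lies between 15.6 and 17.1 CPM in all 4.

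Dividing counts within a library removes the library scaling, so each of the 6 falls that kept their call in all 9 alternatives given in the closing section was set against the start interval of its gene, or the higher end for IKZF3. For IKZF1 the interval 10685 bp upstream held 0.248 and 0.253 of the start interval's count in control and 0.128 and 0.120 in shIRF4. The IKZF2 interval 13781 bp upstream held 0.469 and 0.430 in control and 0.143 and 0.190 in shIRF4. For the IKZF3 interval 12366 bp inside the lower end the ratios were 0.619 and 0.808 in control and 0.254 and 0.317 in shIRF4. In all 6 intervals both shIRF4 ratios were below both control ratios, with the shIRF4 mean at 0.371 to 0.684 of the control mean. The 6 were chosen for their falls, so these ratios are a description. With 2 libraries against 2, an exact two-sided permutation test cannot give a p under 0.333. A ratio shows unequal change and not that the start interval stayed the same.

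**Figure D3:**
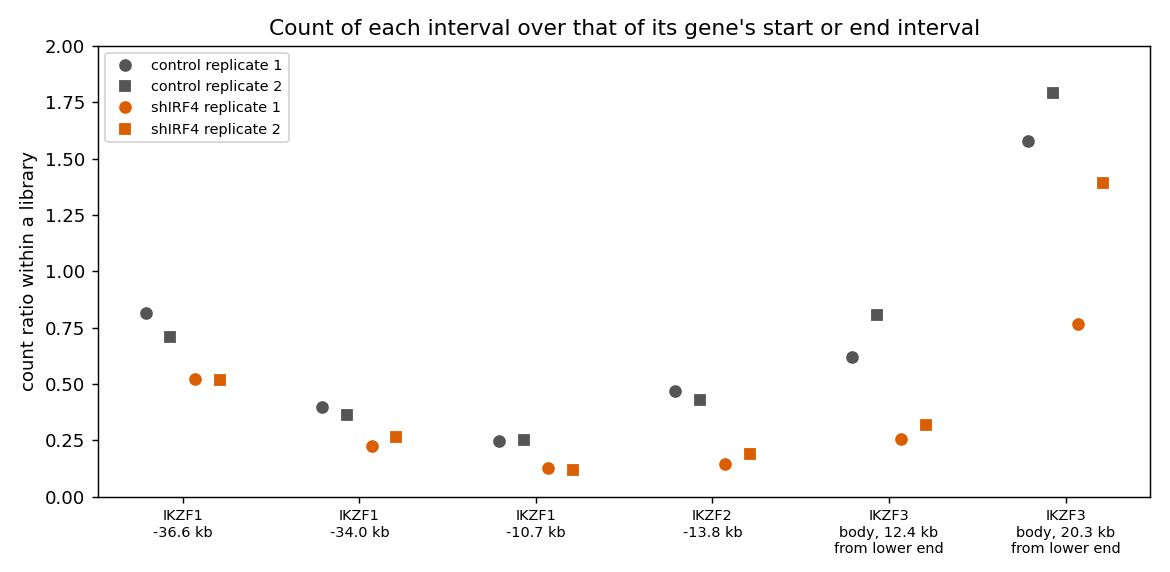
Count of 6 intervals divided by the count of the start interval of the same gene (higher end for IKZF3) in the same library, with circles for replicate 1 and squares for replicate 2. In each of the 6 the orange shIRF4 points lie below the grey control points; shIRF4 replicates 1 and 2 of the IKZF3 interval 20.3 kb from the lower end are farther apart (0.766 and 1.39) than in the others.

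Summing all intervals of a gene gives 1 value a gene, on a CPM scale over assigned intervals. IKZF1 summed to 533.3 and 525.5 CPM in control and 453.3 and 422.7 CPM in shIRF4, and it was lower (-0.27, SE 0.05, adjusted p = 0.00233, edgeR). IKZF2 summed to 84.5 and 79.9 CPM in control and 70.0 and 69.9 CPM in shIRF4, also lower (-0.23, SE 0.05, adjusted p = 0.00505, edgeR). IKZF3 summed to 257.8 and 259.0 CPM in control and 240.9 and 240.7 CPM in shIRF4, without passing (-0.10, SE 0.05, adjusted p = 0.135, edgeR). CRBN, with its 1 interval, changed by -0.02 (SE 0.10, adjusted p = 0.900, edgeR). Of 16144 genes tested this way 20.2% were called, 13.4% lower and 6.73% higher. The IKZF1 call was lost without control replicate 1 (adjusted p = 0.115) and without control replicate 2 (adjusted p = 0.083, edgeR), and the IKZF2 call without control replicate 1 (adjusted p = 0.084, edgeR) and in DESeq2 (adjusted p = 0.171).

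Intervals of the neighbouring genes were counted in the same way, to be read beside the 15.5% lower and 7.26% higher of all intervals. Within 500 kb of IKZF1, 28 intervals of other genes had a median change of 0.01, with 4 higher and 3 lower. SPMIP7 had 3 of 14 higher (0.46 to 0.83), and ZPBP had 2 of 5 lower (-1.63 and -0.37). Within 500 kb of IKZF2, the 6 intervals of SPAG16 were not called by edgeR (1 with an unadjusted p under 0.05) or by DESeq2. Within 500 kb of IKZF3, 78 intervals had a median of 0.01, with 5 higher and 4 lower, and CDK12, a transcriptional kinase gene, had 2 lower (1.96-fold and 1.99-fold) and 1 higher (1.71-fold) of 8.

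Within 500 kb of CRBN, 5 of 10 intervals of other genes were lower, where 15.5% of all intervals were, and 5 were not called, with a median of -0.35. IL5RA, which encodes a chain of the interleukin 5 receptor, had 3 of 4 intervals lower. Its interval at chr3:3089035-3089455 fell from 6.46 and 6.10 CPM to 2.12 and 2.84 CPM (-1.40, SE 0.21, adjusted p = 3.11e-05, edgeR). The other 2 fell by 0.71 and 1.05 on the log2 scale. CNTN4, a neuronal adhesion gene, had 2 of its 5 intervals within 500 kb lower (-0.97 and -1.51). The start-side interval of TRNT1, a tRNA processing enzyme gene next to CRBN, lay at 26.8 and 27.0 CPM in control and 27.8 and 30.0 CPM in shIRF4 (0.09, adjusted p = 0.475, edgeR).

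The remaining Ikaros family genes had 3 intervals, 1 at IKZF5 (Pegasus) and 2 at IKZF4 (Eos). These changed by -0.05, -0.21 and -0.20, and 0 of 3 were called by edgeR, had an unadjusted p under 0.05 or were called by DESeq2. The IKZF5 start interval lay at 15.1 and 15.5 CPM in control and 14.9 and 14.5 CPM in shIRF4.

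Cereblon works as the substrate receptor of a ligase built on CUL4 and RBX1, charged by the enzymes UBE2G1 and UBE2D3 and switched by NEDD8 and the COP9 signalosome. Of 20 such genes, 17 had an interval, and 8 of their 46 intervals were lower, 2 higher and 36 not called (median 0.03). UBE2G1, the ubiquitin-conjugating enzyme that extends chains on cereblon's drug-induced substrates, had 4 of 9 lower. Its interval 29941 bp outside the gene (chr17:4395580-4397652) fell from 51.3 and 51.0 CPM to 26.6 and 31.2 CPM (-0.85, SE 0.08, adjusted p = 9.26e-08, edgeR). RBX1, the RING subunit, and CUL4A, the scaffold, each had 2 of 4 intervals lower (-0.59 and -0.92 at the one of smallest p). COPS2, a signalosome subunit, rose at its gene-end interval from 25.5 and 25.7 CPM to 31.0 and 29.1 CPM (0.24, SE 0.08, adjusted p = 0.0427, edgeR). CAND1, which exchanges substrate receptors, had 1 of 5 intervals higher (0.62, adjusted p = 0.0363, edgeR), 95.7 kb outside the gene. Calls at the lists and neighbours are those of the main edgeR fit, and whether they hold in the alternatives is not given. With 21.7% called, the list was near the 22.8% of all intervals. DDB1, the adaptor that holds cereblon, had no interval.

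At 16 genes of other proteins that cereblon degrades with a drug bound, 6 of 66 intervals were lower and 2 higher (median 0.04), or 12.1% called against 22.8% of all tested intervals. Falls were found in the body of ZMYM2 (-1.36, SE 0.23) and 22.3 kb outside ARID2 (-1.31, SE 0.21), genes of chromatin factors. Another lay 50.9 kb outside DTWD1 (-1.17, SE 0.24). An interval 80504 bp from TP63, the p53 relative of epithelia, rose from 1.34 and 1.12 CPM to 8.14 and 6.44 CPM, a 6.11-fold change (2.61, SE 0.24, adjusted p = 5.81e-08, edgeR). TP63 held 17 of the 66 intervals, of which 2 were higher and 1 lower (-0.90). SALL4, ZFP91 and ZBTB16 had no interval.

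Ikaros proteins recruit the NuRD complex, with its CHD4, HDAC, MTA, MBD and GATAD2 subunits, and the corepressors SIN3 and CTBP1. Of 83 intervals at 16 such genes, 13 were lower, 10 higher and 60 not called (median 0.05), or 27.7% called against 22.8% of all tested intervals. The NuRD subunit gene GATAD2B had 4 of 10 lower. Its body interval (chr1:153842029-153842474) fell from 5.87 and 6.25 CPM to 0.923 and 0.764 CPM, a 6.92-fold change (-2.79, SE 0.26, adjusted p = 5.62e-08, edgeR). Its paralog GATAD2A had 3 of 10 higher, with 8.39 and 6.32 CPM in control and 11.8 and 8.84 CPM in shIRF4 at the one of smallest p (0.55, SE 0.16, adjusted p = 0.0149, edgeR). MTA1 had 1 of 7 intervals lower (-1.20), SIN3A 1 of 2 higher (1.47) and SIN3B 2 of 4 higher (0.69 at the one of smallest p). Calls went both ways at MTA3, with 2 of 12 lower (-1.54 at the one of smallest p) and 1 higher, and at MBD2, which binds methylated DNA, with 3 of 10 lower (-1.12) and 1 higher (1.56).

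IRF4 and SPIB form the circuit that lenalidomide is known to act on in ABC lymphoma, with repression of IRF7. Of 47 intervals at 6 genes, 10 were lower, 5 higher and 32 not called (median -0.09), or 31.9% called against 22.8% of all tested intervals. SPIB had 1 interval, 26519 bp long, that fell by 0.18 on the log2 scale (SE 0.04), and MYC had 1 of 7 higher (0.58, SE 0.18). The 2 intervals of IRF7 and IFNB1 were not called by edgeR, at an unadjusted p under 0.05 (0 of 2) or by DESeq2. The IRF4 gene itself had 2 of 15 lower, and accessibility of its DNA does not measure the knockdown.

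**Figure D4:**
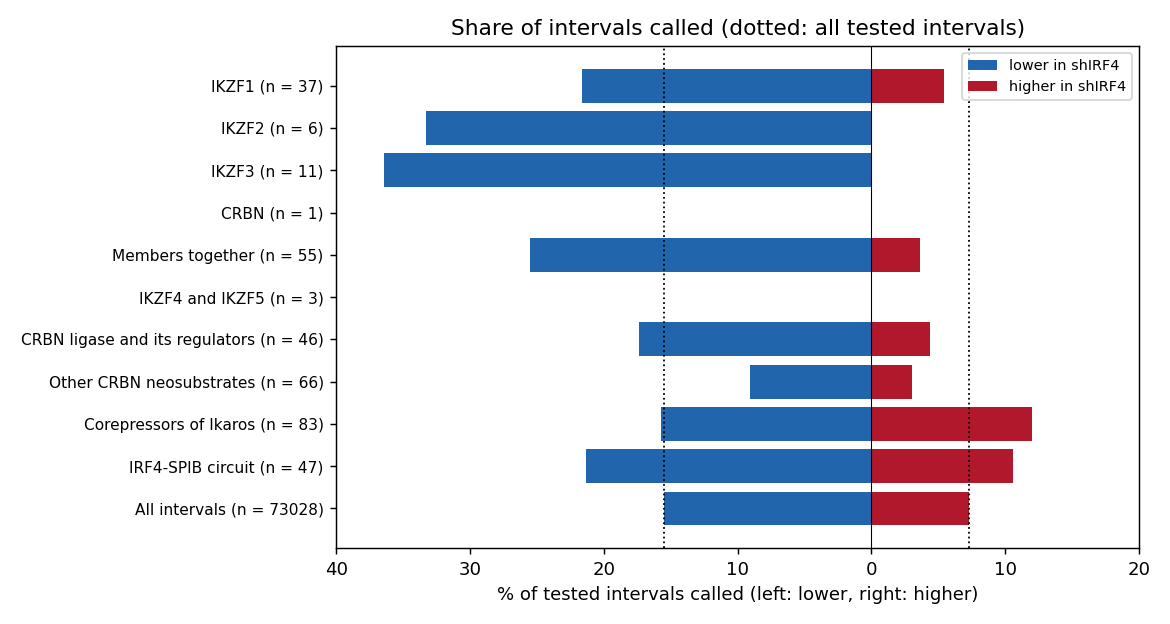
Percent of tested intervals called lower (blue, left) and higher (red, right) in shIRF4 for each member gene, the members together, the lists of related genes and all tested intervals, with n the number of intervals. Dotted lines mark 15.5% and 7.26%, the shares over all tested intervals; IKZF2 and IKZF3, with 6 and 11 intervals, have 33.3% and 36.4% lower and no higher interval.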

How the data were processed

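Raw counts per merged peak of 4 TMD8 ATAC-seq libraries (2 control, 2 shIRF4) were deposited by the authors, who made them with featureCounts 2.0.0, per the file headers. These show reads reduced to their 5′ end, duplicates ignored and fractional multi-mapping requested, yet all counts were whole. Per the submitters' processing notes, hg38 was the build. Aligner, peak caller and transposase shift are not given in the sources used here. Ignoring duplicates caps dense intervals, more so in deeper libraries.

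From these counts, differences were tested with edgeR 4.0.16 (quasi-likelihood, TMM scaling, filterByExpr, R 4.3.3) on all 4 libraries and all intervals, adjusted by Benjamini and Hochberg, threshold 0.05. Levels are TMM-scaled CPM, and an SE is the fold change over the square root of F. Gene bodies came from a RefSeq table (GRCh38.p14) with no exons, so introns and exons were not told apart. Described were all member intervals (many uncalled IKZF1 intervals by their range), up to 4 genes per list and direction by smallest p, and neighbours with 2 or more called intervals. A gene that this rule names is not reported here. TRNT1, the IKZF5 interval and the genes without an interval were added. Members and lists were chosen with earlier results of these data known. Alternatives were DESeq2 1.42.0, other scaling, filter, assignment and pairing, a 1.5-fold test, and leaving out libraries.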

Additional observations from a re-analysis of the deposited data

How the results depend on the processing

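Of the 16 called member intervals, 6 kept their direction and call in each of 9 alternatives (scaling by totals, DESeq2, no filter, 4 sets without 1 library, replicate block, control pair as 1 sample): 3 before IKZF1, 1 before IKZF2 and 2 in IKZF3. The other 10 lost the call in DESeq2, and 9 of them elsewhere too. How many of all tested intervals keep their call in all 9 alternatives was not counted, so the 6 have no background share. Beside the shares of all intervals given with the main count, the number called was 6 in DESeq2 (6 lower, 0 higher), 4 against a 1.5-fold change (4 lower, 0 higher) and 9 to 16 without 1 library (9 to 13 lower, 0 to 3 higher). It was 9 without control replicate 2 and 10 without control replicate 1. Where 1 library of a group was left, it is assumed to vary like the other group. For these sets the shares of all intervals are compared with the main count in words only. The upper end of the range came without shIRF4 replicate 2, where the member share lay close to that of all intervals. With the replicate block, 16 were called (15 lower, 1 higher), or 29.1%, where 22.7% of all intervals were called (15.6% lower, 7.13% higher). Deviations of libraries that share a number correlated at r = -0.0262. Since the control libraries differed by little more than sampling noise, this cannot show whether libraries were paired. The main fit does not take the number as a pairing. Over all intervals, 68.1% of calls were lower, and 58.0% with scaling by totals. At the members, scaling by totals gave 12 lower and 2 higher (25.5% called). Of all intervals 23.4% were then called, 13.6% lower and 9.83% higher.

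Summed per gene, IKZF1 ranged from -0.32 to -0.23, IKZF2 from -0.27 to -0.19, IKZF3 from -0.11 to -0.10 and CRBN from -0.08 to 0.07 without 1 library. IKZF1 was at -0.27 with the control pair as 1 sample (adjusted p = 0.089, edgeR), IKZF2 at -0.23 in DESeq2 (adjusted p = 0.171), and IKZF3 was called at -0.10 without shIRF4 replicate 2 (adjusted p = 0.017, edgeR). CRBN turned to 0.03 when scaled by totals and 0.07 without shIRF4 replicate 1, neither called. The cause was not tested. Intervals with few counts, such as those under 5 CPM, limit what 2 libraries a group can show.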
